A study of Mus musculus with 2 samples.

Results

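Myh2-dominant nuclei, the nuclei of type IIa muscle fibres by their main myosin, were examined in single-nucleus RNA sequencing (snRNA-seq) of the mouse gastrocnemius and plantaris (GP) of the calf. Nuclei were chosen by their measured myosin RNA. A nucleus was placed here when it held at least 3 unique molecular identifiers (UMIs, each marking 1 captured RNA molecule) of the adult myosin heavy chain genes Myh7, Myh2, Myh1 and Myh4, and at least 60% of these were Myh2. It also had to hold fewer than 3 UMIs summed over Pdgfra, Dcn, Col1a1, Col3a1, Pecam1, Flt1, Ptprb and Ptprc, genes of connective tissue, endothelial and immune cells. Of 7741 nuclei with at least 500 UMIs and at most 10% mitochondrial UMIs, 510 met this rule. They were 175 of 3833 nuclei in Ctrl and 335 of 3908 in cKO. The same rule applied to the other myosins gave 321 Myh7-, 739 Myh1- and 3756 Myh4-dominant nuclei for comparison.

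The study examined loss of Net39, a protein of the nuclear envelope in muscle that is encoded by Plpp7. Ctrl mice were Net39 fl/fl without Cre, and cKO mice were HSACreERT2;Net39 fl/fl, in which the human skeletal actin promoter drives a tamoxifen-inducible Cre in muscle fibres. Both groups were of the B6C3F1 background, were 5 months of age and were examined 3 months after tamoxifen, so that Ctrl mice carried the floxed alleles and had the same interval after the drug. For each genotype, nuclei of 3 GP muscles were pooled into 1 library after sorting that removed debris only, although the sample titles name 1 mouse. No nucleus could be assigned to an animal, so each genotype counted as 1 sample, no test between genotypes was possible, and every interval below is a 95% interval for counting error only.

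Adult limb fibres are classed by the myosin heavy chain that they carry. Myh7 marks slow type I fibres, and Myh2, Myh1 and Myh4 mark fast type IIa, IIx and IIb fibres. Type IIa fibres combine a fast myosin with many mitochondria and resist fatigue, and PGC-1 and its nuclear receptor partners of the ERR and PPAR families drive genes of oxidative metabolism in them. The nuclei of a fibre share its cytoplasm, and a fibre can carry more than 1 myosin.

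The cKO library was shallower, with a median of 1662.5 UMIs per barcode against 2106 in Ctrl, and 5 barcode sequences occurred in both libraries, 0 of them among the Myh2-dominant nuclei. The Myh2-dominant nuclei had a median of 2184 UMIs and 952 genes in Ctrl and of 1797 UMIs and 748 genes in cKO. The nuclear noncoding RNA Malat1 took 25.4% of their UMIs in Ctrl and 33.7% in cKO, and mitochondrial genes took 0.379% and 0.459%. Summed over these nuclei there were 441222 UMIs in Ctrl and 707045 in cKO. Levels are given as CPM, the UMIs of a gene for every 1000000 UMIs of that class and library. Plpp7 was at 34.0 CPM in Ctrl (15 UMIs) and 25.5 CPM in cKO (18 UMIs), a log2 ratio of −0.42 (−1.49 to 0.67). The deleted part is the first exon, while the assay reads the other end of the transcript. The part of this in the Plpp7 counts was not tested. Levels in Myh4-dominant nuclei, from 328 and 210 UMIs, were 52.7 CPM (Ctrl, 47.1 to 58.7) and 59.0 CPM (cKO, 51.3 to 67.6). Myh7- and Myh1-dominant nuclei had lower levels in cKO, with overlapping intervals. The paper reports less Net39 mRNA in cKO muscle by bulk RNA sequencing. With an interval on both sides of no difference in Myh2-dominant nuclei, Plpp7 does not check the genotype here. Nuclei that reached 3 UMIs of the non-fibre genes, 331 in Ctrl and 92 in cKO, are given below for comparison as nuclei outside the fibre classes. Of these, 133 and 31 themselves held at least 3 myosin UMIs, so they are not free of fibre RNA.

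Myh2 (ENSMUSG00000033196) spans 67171027 to 67197517 of chromosome 11 (GRCm38), and on the same plus strand it is followed by Myh1 (67200052 to 67224575) and Myh4 (67238029 to 67260446). The 250 bases before the RefSeq start of each gene are shown because these genes decided the class of a nucleus. Capitals mark the TATA box (TATAAA, either strand) and the MEF2 site, the recognition sequence of the MEF2 factors of muscle, which overlaps a TATA box in both windows that hold it.

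Myh2, chr11:67170777-67171026, plus strand: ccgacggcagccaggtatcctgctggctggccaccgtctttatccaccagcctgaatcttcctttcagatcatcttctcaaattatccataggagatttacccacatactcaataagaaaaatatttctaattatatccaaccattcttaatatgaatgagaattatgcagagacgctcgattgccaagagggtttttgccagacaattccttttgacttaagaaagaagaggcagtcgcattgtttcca

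Myh1, chr11:67199852-67200101, plus strand: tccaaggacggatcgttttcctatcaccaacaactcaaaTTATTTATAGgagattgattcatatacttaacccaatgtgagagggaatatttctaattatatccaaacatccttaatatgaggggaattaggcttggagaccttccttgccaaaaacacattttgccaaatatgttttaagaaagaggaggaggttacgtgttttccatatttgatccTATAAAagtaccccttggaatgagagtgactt

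Myh4, chr11:67237562-67237811, plus strand: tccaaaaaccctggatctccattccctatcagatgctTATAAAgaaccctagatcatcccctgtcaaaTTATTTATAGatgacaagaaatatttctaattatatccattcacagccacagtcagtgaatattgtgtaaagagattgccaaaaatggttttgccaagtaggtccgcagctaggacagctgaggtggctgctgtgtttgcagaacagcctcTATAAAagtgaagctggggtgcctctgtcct

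The upstream windows of Myh1 and Myh4 each held a TATA box close to the start, at −32 and −31, and a MEF2 site farther out, at −211 and −182. Neither was found in the 250 bases of Myh2. There the letters TATAAA on the gene's strand occurred at +11 of the RefSeq start, in the window that also spans the first bases of the transcript. All 3 windows shared the run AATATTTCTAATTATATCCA, at −130 in Myh2, −165 in Myh1 and −163 in Myh4. Of 32851 RefSeq promoter windows, 12.4% held a TATA box and 2.92% a MEF2 site. These matches describe the letters only.

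The myosin UMIs that chose the nuclei are given as a description. Myosin UMIs per Myh2-dominant nucleus ranged from 3 to 74 in Ctrl, with a median of 8, and from 3 to 47 in cKO, with a median of 6. The median Myh2 share was 80% in both libraries. Assignments rested on few molecules in many nuclei, since 19 in Ctrl and 47 in cKO had exactly 3 myosin UMIs, and 73 and 93 had 10 or more. Just inside the threshold, at a share of 60% to under 70%, lay 51 nuclei in Ctrl and 74 in cKO. Just outside it, at 50% to under 60%, lay 37 and 65. Nuclei with Myh2 as their only myosin but with 2 UMIs, too few to be placed, numbered 4 in Ctrl and 30 in cKO.

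**Figure D1:**
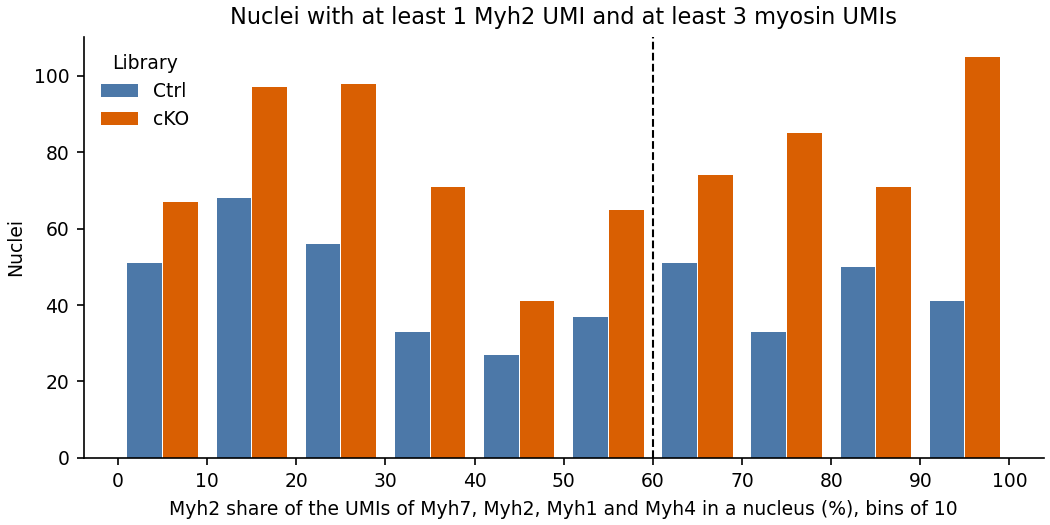
Number of nuclei (vertical axis) by the share of Myh2 among the UMIs of 4 myosin genes (horizontal axis, bins of 10 percentage points, the last including 100%), for nuclei with at least 1 Myh2 UMI, at least 3 myosin UMIs and fewer than 3 non-fibre UMIs. The dashed line is the 60% threshold, and no empty bin separates the nuclei on its 2 sides (37 Ctrl and 65 cKO nuclei in the bin below it, 51 and 74 in the bin above it).

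UMIs of a second myosin were common in Myh2-dominant nuclei, and they were mostly of Myh1. Myh1, the IIx myosin, was seen in 118 of 175 nuclei in Ctrl (67.4%, 59.9 to 74.3) and in 195 of 335 in cKO (58.2%, 52.7 to 63.5). Myh4, the IIb myosin, was seen in 63 (36.0%) and 71 (21.2%), and Myh7, the slow myosin, in 1 (0.571%) and 17 (5.07%). Myh2 was the only myosin of 31 nuclei in Ctrl (17.7%) and 90 in cKO (26.9%). These shares were read at each nucleus's own depth, which was lower in cKO, and the part of depth in them was not tested. Non-fibre nuclei held Myh1 at 388 and 217 CPM and Myh4 at 1238 and 788 CPM in Ctrl and cKO. The source of the Myh1 and Myh4 UMIs in Myh2-dominant nuclei was not tested.

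Myh2-dominant nuclei with and without a Myh1 UMI were set side by side. Agbl1, a carboxypeptidase gene and a marker of these nuclei, was at 8020 CPM with Myh1 and 7239 CPM without it in Ctrl, and at 4989 and 5546 CPM in cKO. Esrrb, an orphan nuclear receptor gene of the ERR family, was at 160 and 225 CPM in Ctrl and at 101 and 124 CPM in cKO, with overlapping intervals. For Agbl1 the order differed between the libraries, and for Esrrb the intervals do not separate the nuclei with and without Myh1. Myh7 was at 87.0 CPM (53.9 to 133) in the 140 cKO nuclei without Myh1 and at 10.7 CPM (3.49 to 25.1) in the 195 with it. In Ctrl it had 0 UMIs without Myh1 and 1 UMI with it. Non-fibre nuclei held Myh7 at 18.2 CPM (Ctrl) and 277 CPM (cKO). The rule capped Myh7 and Myh1 together in Myh2-dominant nuclei and not in non-fibre nuclei, so these Myh7 levels are a description.

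The label was set beside the markers of type IIa nuclei that the rule did not use. Ldhb, the lactate dehydrogenase subunit of oxidative tissue, reached 175 CPM (138 to 218) in Ctrl, while in cKO it reached 144 CPM (118 to 175). These levels were above 35.1 and 46.3 CPM in Myh1-dominant and 3.21 and 15.2 CPM in Myh4-dominant nuclei. Esrrb was at 179 and 109 CPM, above 65.7 and 41.1 CPM in Myh1-dominant and 9.15 and 9.84 CPM in Myh4-dominant nuclei. Myh7-dominant nuclei held both at similar levels in cKO, 115 CPM of Ldhb and 103 CPM of Esrrb. Neither gene therefore set type IIa nuclei apart from slow nuclei.

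Agbl1 was at 7792 CPM (Ctrl) and 5179 CPM (cKO), only 0.30 and 0.36 higher on the log2 scale than in Myh1-dominant nuclei, and 2.36 and 1.65 higher than in Myh4-dominant nuclei. It did not set IIa nuclei apart from IIx nuclei. Among Myh7-dominant nuclei, each thinned to 500 UMIs, it was seen in 14 of 20 in Ctrl (70.0%, 45.7 to 88.1). In cKO it was seen in 88 of 301 (29.2%, 24.2 to 34.7). Type IIa nuclei thinned alike had 90.3% and 73.1%, so in Ctrl slow nuclei held it as well. Fam129a, a stress-response gene also called Niban1, was at 81.6 and 58.0 CPM, against 9.06 and 16.5 CPM in Myh1-dominant and 8.35 and 10.7 CPM in Myh4-dominant nuclei. Non-fibre nuclei held more of it, 125 and 165 CPM, so it marked type IIa nuclei only among myonuclei. These markers were chosen with earlier results of these data known, so their levels describe the nuclei and are no independent support for the label.

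Markers of cells outside the fibre were summed over the genes that the rule did not use. The rule capped related genes in the Myh2-dominant nuclei and chose the non-fibre nuclei by them, so the distance between both is a description. The 5 such markers of fibro-adipogenic progenitors, of a list of 9, summed to 9.07 CPM in Ctrl and 19.8 CPM in cKO, against 1108 and 1247 CPM in the non-fibre nuclei. The 6 such endothelial markers, of a list of 9, summed to 18.1 and 17.0 CPM, against 353 and 312 CPM, with Cdh5 and Egfl7 at 0 in both libraries. Smooth muscle and pericyte markers, a list of 6 with none in the rule, were not lower than outside the fibre classes in cKO. They summed to 240 and 212 CPM, against 290 and 191 CPM in non-fibre nuclei and 249 to 344 CPM in Myh1- and Myh4-dominant nuclei, with Acta2, Rgs5 and Pdgfrb at 0. In cKO Notch3 was at 0 too, so the sum there came from Myh11 and Abcc9 only. The source of these RNAs was not tested. Satellite cell markers summed to 6.80 and 8.49 CPM, and the 5 immune markers outside the rule to 52.1 and 9.90 CPM. The slow fibre markers other than Myh7 (6 genes) summed to 177 CPM in Ctrl and 754 CPM in cKO, and the type IIb markers other than Myh4 (4 genes) to 326 and 168 CPM.

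Myh2-dominant nuclei made up 4.57% (3.93 to 5.27, exact binomial) of the nuclei in Ctrl and 8.57% (7.71 to 9.49) in cKO, a difference of 4.01 percentage points (2.89 to 5.13). Among nuclei with a dominant myosin they were 6.62% (5.70 to 7.63) and 12.5% (11.3 to 13.8), a difference of 5.87 points (4.28 to 7.47). Both shares moved with the depth at which nuclei were read. With each nucleus thinned to 500 UMIs they were 1.80% and 2.87% of nuclei, a difference of 1.07 points (0.377 to 1.76). Among the 645 Ctrl and 977 cKO nuclei that kept a dominant myosin they were 10.7% (8.42 to 13.3) and 11.5% (9.53 to 13.6), and the difference was 0.766 points (−2.51 to 3.91). At 1000 UMIs per nucleus, a depth that 258 Ctrl and 579 cKO nuclei did not have, the shares among assigned nuclei were 8.59% and 11.5%, 2.95 points apart (0.932 to 4.95). The difference in points was smaller when both libraries were read at 1 depth. Thinning also lowered both shares of all nuclei and left fewer assigned nuclei, so the part of depth cannot be read from it. At 500 UMIs the difference lay within counting error among assigned nuclei but not among all nuclei. Myh7-dominant nuclei numbered 20 in Ctrl and 301 in cKO, and non-fibre nuclei 331 and 92, which also moves every share.

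**Figure D2:**
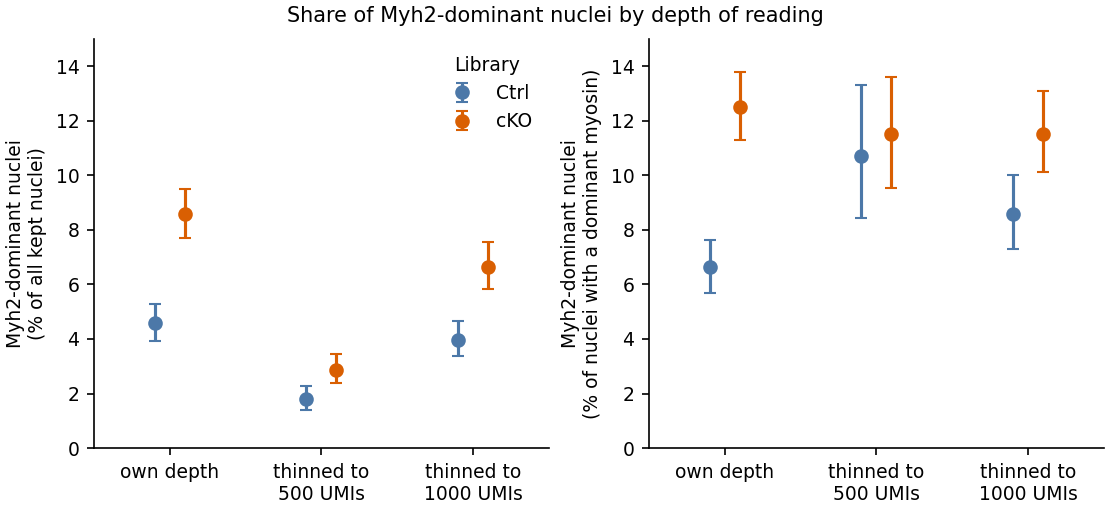
Share of Myh2-dominant nuclei (vertical axes, %) in the Ctrl and cKO libraries at each nucleus's own depth and after thinning to 500 or 1000 UMIs (horizontal axes), among all nuclei (left) and among nuclei with a dominant myosin (right). Points are single libraries and bars exact binomial 95% intervals, which overlap in the right panel at 500 UMIs (10.7% and 11.5%).

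Myh2-dominant nuclei were then compared with Myh1- and Myh4-dominant nuclei of the same library. The 12 genes that stood highest over both classes in both libraries included potassium and calcium channels, ketone body and TCA cycle enzymes and a muscle stretch sensor. Since nuclei were sorted into classes on their own RNA, these values are a description and no test was made. Kcnq3 (ENSMUSG00000056258, chromosome 15, 65986387 to 66286642), a subunit of the M-type potassium channel known from neurons, was at 77.1 CPM (Ctrl) and 60.8 CPM (cKO). Myh1-dominant nuclei held 5.66 and 7.20 CPM of it and Myh4-dominant nuclei 5.30 and 3.93 CPM. Cacna1a, the pore subunit of the P/Q-type calcium channel, was at 168 CPM (Ctrl) and 72.1 CPM (cKO), against 28.3 and 17.5 CPM in Myh1-dominant and 9.80 and 13.5 CPM in Myh4-dominant nuclei. Non-fibre nuclei held 109 and 165 CPM of Cacna1a but only 13 and 4.33 CPM of Kcnq3.

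Metabolic and structural genes followed the same order. Bdh1, the mitochondrial enzyme that interconverts the ketone bodies acetoacetate and beta-hydroxybutyrate, was at 154 CPM (Ctrl) and 90.5 CPM (cKO), 2.84 (2.09 to 3.66) and 2.65 (1.80 to 3.60) higher on the log2 scale than in Myh1-dominant nuclei. Against Myh4-dominant nuclei its log2 ratio was 5.38 in Ctrl and 2.78 in cKO. Idh2, the mitochondrial NADP-dependent isocitrate dehydrogenase, was at 206 and 337 CPM, 2.19 and 2.18 above Myh1-dominant nuclei. Ankrd2, a titin-binding ankyrin repeat protein that responds to stretch, was at 764 and 249 CPM, 2.49 and 2.22 above Myh1-dominant and 5.14 and 3.79 above Myh4-dominant nuclei. Each gene was thus higher in the Myh2-dominant nuclei of both libraries, although the distance to Myh4-dominant nuclei was smaller in cKO for all 3. Homer2, a scaffold of calcium signalling, stood at 236 and 144 CPM, with 51.0 and 35.0 CPM in Myh1-dominant nuclei. Cyfip2, a regulator of actin, stood at 77.1 and 62.2 CPM, with 10.2 and 7.20 CPM. Lrrc52, an auxiliary subunit of potassium channels, stood at 90.7 and 62.2 CPM, with 24.9 and 16.5 CPM. The uncharacterised Gm20757 was at 209 and 177 CPM and Gm5532 at 109 and 49.5 CPM, each at least 2-fold over both classes.

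**Figure D3:**
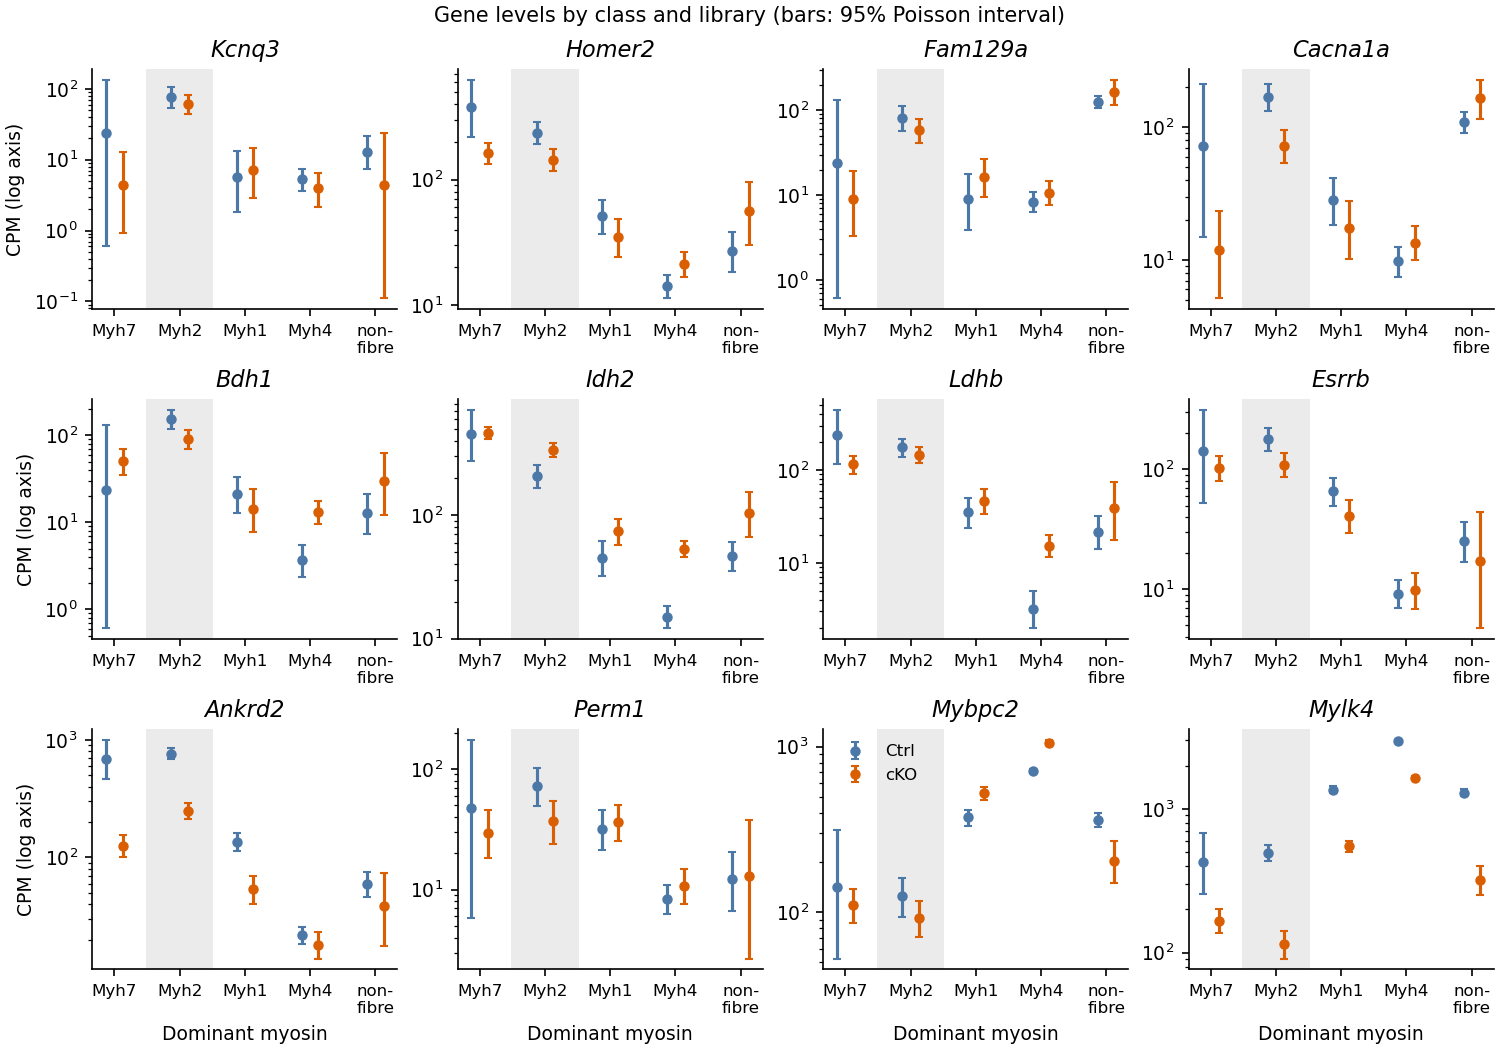
Levels (CPM, log axes) of 12 genes in nuclei dominated by Myh7, Myh2 (grey band), Myh1 or Myh4 and in non-fibre nuclei of the Ctrl and cKO libraries, with exact Poisson 95% intervals. In both libraries Kcnq3 (77.1 and 60.8 CPM) was highest in the Myh2-dominant nuclei, Fam129a was higher in non-fibre nuclei, and Mybpc2 and Mylk4 were lower than in Myh1- and Myh4-dominant nuclei.

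Genes lower in Myh2-dominant nuclei than in both fast classes were led by Col7a1 (a collagen), the uncharacterised Gm21807 and Dupd1 (a dual-specificity phosphatase), followed by Mybpc2, Myom2 and Mylk4. Mybpc2, the fast isoform of myosin-binding protein C, was at 125 CPM (Ctrl) and 91.9 CPM (cKO), against 374 and 522 CPM in Myh1-dominant and 713 and 1059 CPM in Myh4-dominant nuclei. Mylk4, a myosin light chain kinase family member, was at 494 and 115 CPM, against 1361 and 550 CPM in Myh1-dominant nuclei. Myom2, an M-band protein of fast fibres, was at 163 and 91.9 CPM, against 488 and 319 CPM. The large Maf transcription factor gene Maf, known for promoting the IIb program, was at 40.8 and 48.1 CPM, against 122 and 124 CPM in Myh1-dominant and 288 and 334 CPM in Myh4-dominant nuclei. For all 4 genes the levels in Myh2-dominant nuclei lay below those of both fast classes in each library. They also lay below the non-fibre nuclei, which held 360 and 204 CPM of Mybpc2, 1299 and 321 CPM of Mylk4, 244 and 117 CPM of Myom2 and 173 and 117 CPM of Maf. The source of these RNAs in type IIa nuclei was not tested. Pcdh7 (a protocadherin), Psd3 (an exchange factor for ARF6), Sgk1 (a kinase induced by glucocorticoids), Mlf1 and Ccdc88c completed the 12. The log2 ratios of these and the leading 3 to Myh1-dominant nuclei ran from −2.32 (Pcdh7) to −1.32 (Sgk1) in Ctrl and from −2.58 (Gm21807) to −1.41 (Pcdh7) in cKO.

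Gene lists described what separated type IIa from type IIx nuclei. Among 5192 genes with at least 20 UMIs over both classes in each library, 1.35% were at least 2-fold higher and 1.31% at least 2-fold lower in Myh2- than in Myh1-dominant nuclei of both libraries. Of 7 slow fibre contractile genes compared, 5 were at least 2-fold higher (Myl2, Myoz2, Csrp3, Casq2 and Ankrd2), with a list median of 2.49 on the log2 scale in Ctrl and 1.65 in cKO, beside 0.03 and 0.00 over all genes. These encode a slow myosin light chain, a calcineurin-binding Z-disc protein, a muscle LIM protein, the cardiac and slow calsequestrin and the stretch sensor. Of 15 fast contractile genes, 5 were at least 2-fold lower (Mylpf, Pvalb, Myoz1, Mybpc2 and Mylk4), with medians of −0.55 and −0.88. Parvalbumin (Pvalb), the calcium buffer of the fastest fibres, was at 43.1 and 36.8 CPM against 99.7 and 165 CPM. Both lists held these directions in each library.

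Oxidative genes were compared between type IIa and type IIx nuclei in the same way. Of 17 fatty acid genes, 1 was at least 2-fold higher in both libraries, Lpl, the lipase that releases fatty acids from lipoproteins, at 390 and 303 CPM against 156 and 129 CPM. The list median was 0.52 in Ctrl and 0.54 in cKO, and 15 and 13 of the 17 had a ratio above 0. Of 21 nuclear genes of the TCA cycle and respiratory chain, 0 were past 2-fold, with medians of 0.39 and 0.15. Of 14 PGC-1, ERR and PPAR genes, 2 were past it, Esrrb and Ppara. Ppara, the fatty acid receptor that induces oxidation genes, was at 707 and 467 CPM against 229 and 219 CPM. Ppargc1a, which encodes PGC-1α, was at 1124 CPM in Ctrl, above 598 CPM in Myh1-dominant nuclei, but in cKO both classes held close levels, 621 and 643 CPM. Perm1, a muscle regulator induced by PGC-1 and ERR, showed the same, with log2 ratios of 1.19 (0.42 to 1.98) in Ctrl and 0.03 (−0.76 to 0.80) in cKO.

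Against Myh4-dominant nuclei the differences were wider. Of 8332 genes compared, 4.67% were at least 2-fold higher and 6.99% at least 2-fold lower in both libraries. Of the 582 lower genes, 70 had 0 UMIs in type IIa nuclei and would not be 2-fold lower at a floor of 3 UMIs, and 6.14% of genes were lower without them. Of 20 fatty acid genes, 6 were higher (Cd36, Lpl, Fabp3, Slc27a1, Acadvl and Hadhb) and Ucp3, a mitochondrial uncoupling protein, was lower, with list medians of 1.27 in Ctrl and 0.66 in cKO beside −0.05 and −0.12 over all genes. Cd36, the fatty acid translocase, was at 576 and 419 CPM against 56.5 and 71.7 CPM. Of 23 TCA cycle and respiratory chain genes, 7 were at least 2-fold higher, and 23 in Ctrl and 20 in cKO had a ratio above 0. Of 15 PGC-1, ERR and PPAR genes, 6 were higher (Ppargc1a, Esrra, Esrrb, Esrrg, Ppara and Perm1) and 1 was lower (Nrip1, a corepressor of nuclear receptors), and 10 in Ctrl and 9 in cKO had a ratio above 0. Nrip1 was at 107 and 97.6 CPM against 318 and 211 CPM. Esrrg, the ERR receptor of oxidative muscle, was at 4141 and 3168 CPM against 451 and 759 CPM. In each of these 3 lists more genes were at least 2-fold higher than lower in both libraries, and most of the genes compared did not pass 2-fold.

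Fast contractile, glycolysis, glycogen and polyamine genes past 2-fold were mostly lower than in Myh4-dominant nuclei. Of 15 fast contractile genes, 7 were at least 2-fold lower, with medians of −1.11 in Ctrl and −1.51 in cKO, and of 15 glycolysis genes 5 were lower while Ldhb was higher. Of 12 glycogen genes, 5 were lower, among them Phka1, the regulatory subunit of muscle phosphorylase kinase, at 1049 and 549 CPM against 2532 and 1840 CPM. Ugp2, which makes the UDP-glucose used for glycogen, was higher instead, at 1804 and 1167 CPM against 396 and 532 CPM. Of 21 fibre type transcription factors and calcineurin genes, 5 were at least 2-fold lower (Eya4, Maf, Sox6, Ppp3ca and Bhlhe41) and 1 higher (Six4). Prox1 had 0 UMIs in Ctrl type IIa nuclei and 3.21 CPM in Myh4-dominant nuclei, under the floor of 6.80 CPM, so no fold is given for it. Sox6, a repressor of slow genes in fast fibres, was at 1693 and 1133 CPM against 4167 and 3553 CPM. Of 9 polyamine genes, 4 were lower (Smox, Amd1, Amd2 and Sms), and Amd1 and Amd2 are near-identical copies whose UMIs could be split between them. Other lists held more genes that were higher. Of 8 slow contractile genes, 6 were at least 2-fold higher, with medians of 3.92 in Ctrl and 2.13 in cKO. Among 14 giant sarcomere and M-band genes, Mybpc1, Myom3, Lmod2 and Actn2 were higher and Myom2 lower, with medians of 0.70 and 0.44. Of 15 insulin and IGF genes, 3 were higher and 2 lower. Myom3, the M-band myomesin of intermediate fibres, was at 687 and 595 CPM against 34.5 and 88.0 CPM.

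Perm1 is shown with its upstream sequence because it is a target of ERR receptors in muscle and Esrra, Esrrb and Esrrg were at least 2-fold higher in these than in Myh4-dominant nuclei. Against Myh1-dominant nuclei only Esrrb of the 3 passed 2-fold in both libraries, and against Myh7-dominant nuclei of cKO 0 did. Capitals mark the ERR half-site (AAGGTCA, either strand), which was found at −202 and in 4.08% of the 32851 windows.

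Perm1, chr4:156215677-156215926, plus strand: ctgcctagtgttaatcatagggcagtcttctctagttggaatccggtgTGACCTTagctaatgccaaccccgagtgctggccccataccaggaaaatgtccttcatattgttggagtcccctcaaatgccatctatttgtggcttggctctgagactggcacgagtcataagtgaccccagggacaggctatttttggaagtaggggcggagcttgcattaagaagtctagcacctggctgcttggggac

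Type IIa nuclei were compared with slow nuclei in cKO, because Ctrl held only 20 Myh7-dominant nuclei with 41843 UMIs. Of 5474 genes compared in cKO, 4.57% were at least 2-fold higher and 5.54% at least 2-fold lower in Myh2-dominant nuclei. Of 12 slow contractile genes, 8 were lower (Myh7b, Tnnt1, Tnni1, Tnnc1, Myl2, Myl3, Tpm3 and Atp2a2) and 1 was higher (Csrp3). Myoz2, Casq2 and Ankrd2 did not pass 2-fold, at 58.9%, 87.2% and 197% of the slow level. Atp2a2, the calcium pump SERCA2 of slow fibres, was at 413 CPM against 3533 CPM, a log2 ratio of −3.10 (−3.28 to −2.92). Prox1, a transcription factor of slow fibres, had 1 UMI at 1.41 CPM against 118 CPM, a ratio of −6.38 (−11.70 to −3.86). Mhrt, a noncoding transcript antisense to Myh7, had 0 UMIs against 275 CPM. Of 15 fast contractile genes, 6 were higher, among them Tnni2, the fast troponin I, at 182 CPM against 38.7 CPM, and 1 was lower (Actn3). Of 14 giant sarcomere and M-band genes, 1 was at least 2-fold higher (Myom2) and 0 were lower, with a median of 0.14.

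Metabolic lists were compared with slow nuclei in the same way. Of 18 fatty acid genes, 0 were at least 2-fold higher and 2 were lower, with a median of 0.00 beside −0.05 over all genes. Of 21 TCA cycle and respiratory chain genes, 1 was at least 2-fold higher (Cs, citrate synthase) and 15 had a ratio above 0, with a median of 0.46. Of 12 glycogen genes, 10 had a ratio above 0, with a median of 0.26. Outside the lists, Kcnc1, a fast-activating potassium channel, was at 106 CPM against 7.44 CPM, and Nrp1, a co-receptor of VEGF and semaphorins, at 231 CPM against 28.3 CPM. Syn1, the synapsin known from nerve terminals, was at 65.1 CPM against 2.97 CPM (2 UMIs), a log2 ratio of 4.45 (2.52 to 7.54). Agbl1 was 2.41 higher (2.29 to 2.53) than in Myh7-dominant nuclei of cKO, while in Ctrl 14 of 20 Myh7-dominant nuclei (70.0%) held it after thinning. Among genes lower in type IIa nuclei, Dkk2, a Wnt antagonist, was at 32.5 CPM against 477 CPM and Meg3, an imprinted noncoding RNA, at 7.07 CPM against 119 CPM. Myh6, the alpha cardiac myosin, had 1 UMI against 164 CPM, and it lies beside Myh7 and resembles it closely in sequence.

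A small set of genes stood higher in type IIa nuclei than in the 3 other classes, with the slow class compared in cKO only. It was chosen after the values were seen. Of 4894 genes compared, 10 were at least 2-fold above Myh1- and Myh4-dominant nuclei of both libraries and Myh7-dominant nuclei of cKO, among them Myh2, Kcnq3, Cacna1a, Fam129a, A630001G21Rik, Csrp3, Lgi1, Ndufa8 and Npr2. The smallest of the 5 log2 ratios was 4.56 for Myh2, which the rule used, 3.08 for Kcnq3 and 2.04 for Cacna1a. Lgi1, Ndufa8 and Npr2 were close to the limit, with smallest ratios of 1.08, 1.01 and 1.00. Against the same classes 7 genes were at least 2-fold lower (Cep170, 9530026P05Rik, Xylt1, Ints9, Kcnj12, Dopey2 and Gypc), each with at most 18 UMIs in either library of type IIa nuclei.

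Type IIa nuclei of the cKO library were then set against those of Ctrl. Of 4997 genes with at least 20 UMIs over both libraries, 203 (4.06%) were at least 2-fold higher and 296 (5.92%) at least 2-fold lower in cKO. The median log2 ratio of all genes was −0.13, and taken from that median the counts became 279 higher and 217 lower. With 1 library each, these counts describe the libraries and do not show that a gene responded to the genotype. The shares of Malat1 and the depth given above moved with the comparison, and their part in it was not tested.

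Genes far higher in cKO were led by Gpr179 and Nckap5. Nckap5 (chromosome 1, 125913620 to 126830799), which encodes a microtubule-associated protein, was at 45.3 CPM in Ctrl (20 UMIs) and 956 CPM in cKO (676 UMIs), a log2 ratio of 4.40 (3.76 to 5.12). The ratio was 4.68 in Myh1- and 3.69 in Myh4-dominant nuclei, so the difference was found across fast myonuclei. Slow Myh7-dominant nuclei held more Nckap5, 167 CPM in Ctrl (7 UMIs) and 2163 CPM in cKO. Gpr179, an orphan receptor known from the retina, had 0 UMIs in Ctrl and 90 in cKO, at least 18.7-fold higher against a floor of 3 UMIs in the Ctrl library. In cKO it was at 127 CPM in type IIa nuclei and at 112, 102, 78.4 and 108 CPM in Myh7-dominant, Myh1-dominant, Myh4-dominant and non-fibre nuclei. Car3, the carbonic anhydrase of slow muscle, was at 74.8 and 410 CPM, a ratio of 2.46 (1.93 to 3.02), with 30.4 and 308 CPM in non-fibre nuclei. Ablim1, an actin-binding LIM protein, was at 245 and 875 CPM, a ratio of 1.84 (1.54 to 2.15), with 337 and 840 CPM in non-fibre nuclei.

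Other genes higher in cKO rested on few UMIs in Ctrl. Frem2, an extracellular matrix protein of basement membranes, had 2 and 54 UMIs, a log2 ratio of 4.07 (2.15 to 7.16), and Ninj2, an adhesion protein, had 2 and 47 UMIs, a ratio of 3.87 (1.94 to 6.96). Fam184b had 1 and 31 UMIs, a ratio of 4.27 (1.69 to 9.62), and Gm12092 had 4 and 51 UMIs, a ratio of 2.99 (1.55 to 4.92). F830016B08Rik, an interferon-inducible GTPase gene, was at 11.3 and 171 CPM, while its ratio in Myh4-dominant nuclei was 0.68. Zc2hc1a was at 24.9 and 178 CPM and Tsga10 at 20.4 and 119 CPM. In cKO the non-fibre nuclei held 134 CPM of F830016B08Rik, 126 CPM of Zc2hc1a and 134 CPM of Tsga10, close to type IIa nuclei, but only 26.0 CPM of Frem2, Ninj2 and Gm12092 and 8.66 CPM of Fam184b. The intervals of all 7 lay above 1 on the log2 scale, and for the first 3 they spanned a more than 10-fold range.

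Genes lower in cKO were led by Arrdc2, Fkbp5, Pdk4 and Tbc1d1. Arrdc2, an arrestin-domain gene, was at 104 CPM in Ctrl (46 UMIs) and 2.83 CPM in cKO (2 UMIs), a log2 ratio of −5.20 (−8.29 to −3.27). Fkbp5, the co-chaperone of the glucocorticoid receptor that the receptor itself induces, was at 190 and 9.90 CPM, a ratio of −4.27 (−5.62 to −3.16). Pdk4, the kinase that shuts pyruvate out of mitochondria, was at 941 and 143 CPM, a ratio of −2.72 (−3.05 to −2.40). Tbc1d1, a GTPase-activating protein of glucose uptake, was at 510 and 91.9 CPM, a ratio of −2.47 (−2.89 to −2.07). All 4 were also lower in Myh1- and Myh4-dominant nuclei, with ratios between −4.54 and −1.56, and in non-fibre nuclei, where Fkbp5 was at 726 and 212 CPM. Non-fibre nuclei held more Arrdc2 (230 and 17.3 CPM), Fkbp5 and Tbc1d1 (552 and 99.6 CPM) than type IIa nuclei in both libraries, and less Pdk4 (281 and 52.0 CPM).

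Several lower genes differed more in type IIa than in type IIb nuclei. Actn3, the fast alpha-actinin, was at 150 and 36.8 CPM, a log2 ratio of −2.02 (−2.74 to −1.35), beside −0.43 in Myh1- and −0.10 in Myh4-dominant nuclei. Ankrd2 was at 764 and 249 CPM, a ratio of −1.62 (−1.89 to −1.35), beside −1.35 and −0.27. Fam134b, a receptor for autophagy of the endoplasmic reticulum, had a ratio of −1.23 (−1.51 to −0.96), beside −0.15 and 0.00. The differences between classes were not tested. Actn3 in type IIa nuclei lay below its 340 and 134 CPM in non-fibre nuclei and below the 257 and 191 CPM of Myh1-dominant nuclei. Mylk4 was at 494 and 115 CPM and Nos1, the muscle nitric oxide synthase, at 311 and 105 CPM. Ucp3 (−2.19), Dapp1 (−2.22), St3gal5 (−1.60), Klhl38 (−1.64) and Alpl (−1.71), which encode an uncoupling protein, a signalling adaptor, a ganglioside synthase, a ubiquitin ligase adaptor and a phosphatase, completed the named genes.

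**Figure D4:**
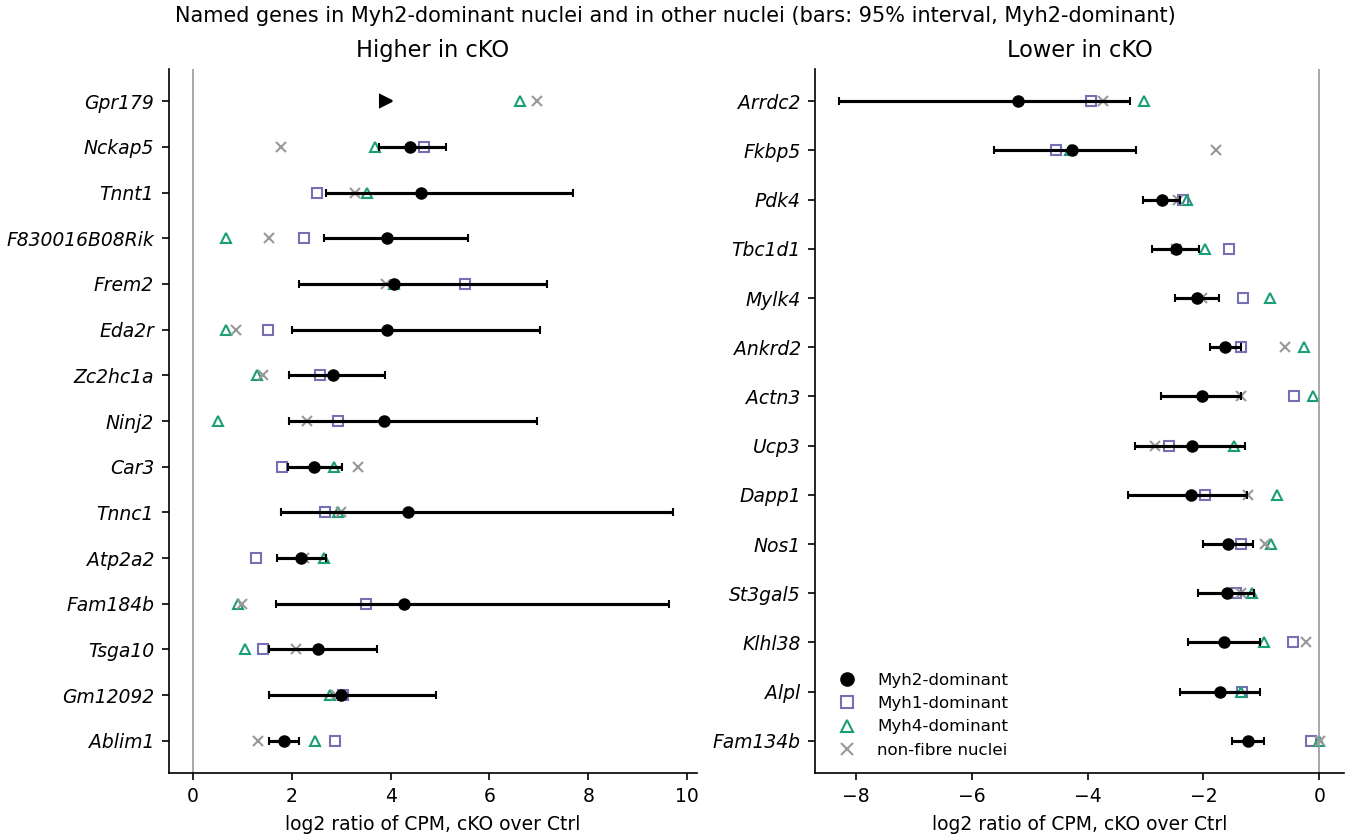
Log2 ratio of CPM in cKO over Ctrl (horizontal axes) for 15 named genes higher and 14 lower in cKO in Myh2-dominant nuclei (black, with exact 95% intervals) and the same ratio in Myh1-dominant, Myh4-dominant and non-fibre nuclei. The arrowhead for Gpr179 is a lower bound, and Nckap5 (4.40) and Fkbp5 (−4.27) had ratios of the same sign in all 4 groups.

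Slow contractile genes divided into those at higher and those at like or lower levels in cKO type IIa nuclei. Of 10 compared, 5 were at least 2-fold higher (Tnnt1, Tnnc1, Myl2, Tpm3 and Atp2a2) and 1 lower (Ankrd2), with a list median of 1.05. Over all genes 4.06% were at least 2-fold higher and 5.92% lower. With at least 50 UMIs required, 4 of 8 were higher and 1 lower. Tnnt1, the slow troponin T, was at 4.53 CPM in Ctrl (2 UMIs) and 110 CPM in cKO (78 UMIs), a ratio of 4.61 (2.70 to 7.68). Tnnc1, the slow and cardiac troponin C, was at 2.27 CPM (1 UMI) and 46.7 CPM (33 UMIs), a ratio of 4.36 (1.79 to 9.71). Atp2a2 was at 90.7 and 413 CPM, a ratio of 2.19 (1.71 to 2.70), which is 2.51% and 11.7% of its level in Myh7-dominant nuclei of the same library.

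The same slow genes were also higher outside type IIa nuclei of cKO. In non-fibre nuclei Atp2a2 was at 116 and 554 CPM, Tnnt1 at 13 and 126 CPM and Tpm3 at 73.8 and 225 CPM, so that in cKO none of these exceeded the non-fibre level in type IIa nuclei. They were not at 1 level across the fast classes of cKO. Atp2a2 was at 413 CPM in Myh2-dominant nuclei and at 167 and 168 CPM in Myh1- and Myh4-dominant nuclei, and Tnnt1 was at 110, 64.8 and 57.0 CPM. Tpm3 ran the other way, at 76.4, 97.7 and 91.0 CPM. Summed over the 9 slow genes left without Ankrd2, Csrp3, Casq2, Myoz2 and Pln, the level was 846 CPM (779 to 916) in Myh2-dominant, 403 CPM in Myh1-dominant, 409 CPM in Myh4-dominant and 1148 CPM (1014 to 1295) in non-fibre nuclei of cKO, and 197 CPM in Myh2-dominant and 239 CPM in non-fibre nuclei of Ctrl. Over all 14 slow genes the order of Myh2-dominant and non-fibre nuclei was the reverse, with 1675 and 371 CPM in Ctrl and 1701 CPM (1607 to 1800) and 1321 CPM (1177 to 1478) in cKO. The source of these RNAs in type IIa nuclei was not tested. Tnnc1, at 34.7 CPM (8 UMIs), and Myl2, at 139 CPM, were close to the 46.7 and 147 CPM of type IIa nuclei. The number of Myh7-dominant nuclei, 20 in Ctrl and 301 in cKO, moved with these levels, and its part in them was not tested. In contrast, Myoz2 (433 and 320 CPM), Csrp3 (218 and 178 CPM) and Ankrd2 (764 and 249 CPM) stood far above their non-fibre levels of at most 73.6 CPM in both libraries, and they were not higher in cKO. Casq2 was at 61.2 and 109 CPM, with 12.2 and 17.3 CPM in non-fibre nuclei, a ratio of 0.83 (0.18 to 1.52).

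**Figure D5:**
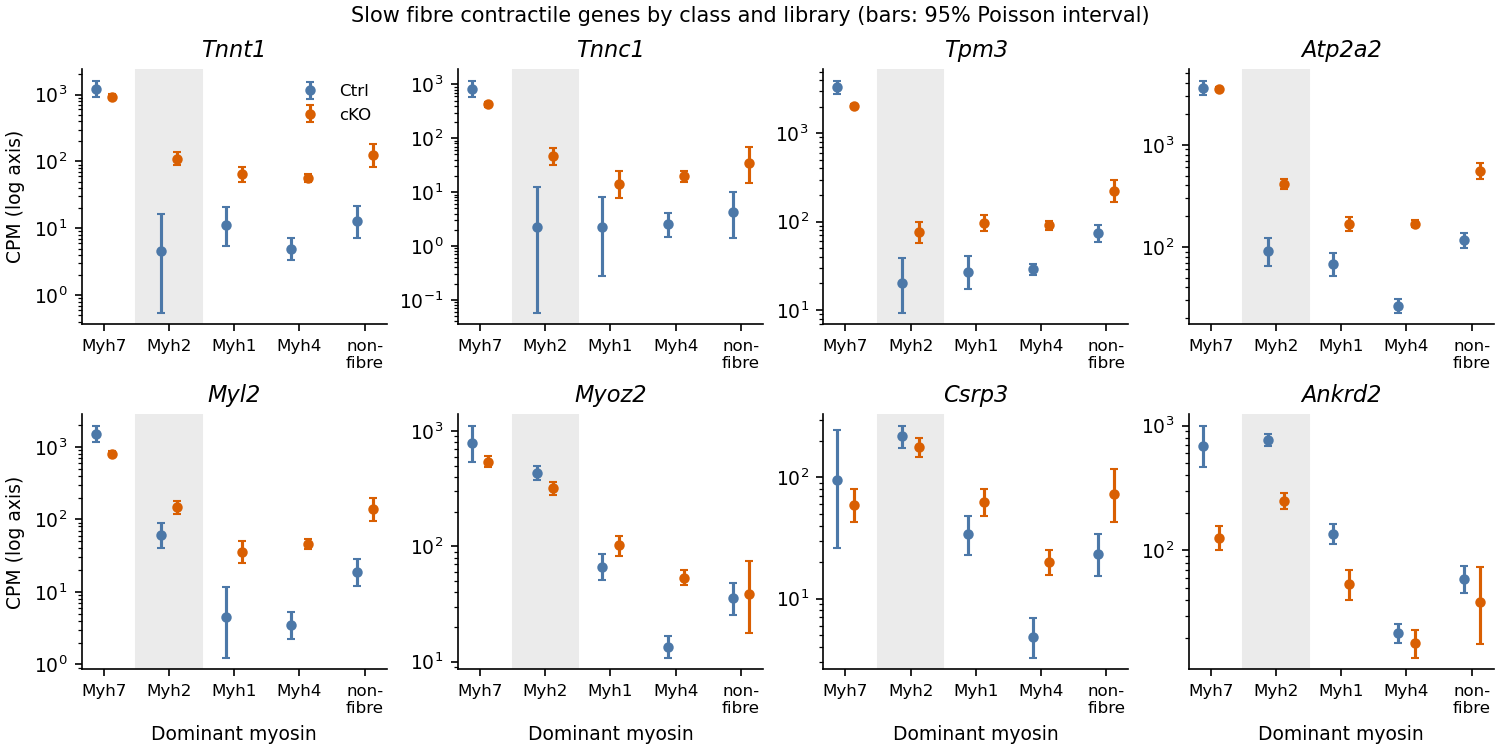
Levels (CPM, log axes) of 8 slow fibre contractile genes in nuclei dominated by Myh7, Myh2 (grey band), Myh1 or Myh4 and in non-fibre nuclei of the Ctrl and cKO libraries, with exact Poisson 95% intervals. Tnnt1, Tnnc1, Tpm3, Atp2a2 and Myl2 were higher in cKO in the Myh2-, Myh1- and Myh4-dominant and the non-fibre nuclei, whereas Myoz2, Csrp3 and Ankrd2 were not higher in cKO in Myh2-dominant nuclei.

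Fast contractile genes were compared next, beside 4.06% of all genes at least 2-fold higher and 5.92% at least 2-fold lower. Of 15, 2 were at least 2-fold lower in cKO (Actn3 and Mylk4) and 1 higher (Myoz3, a Z-disc calsarcin, at 31.7 and 69.3 CPM), with a median of −0.23. Tnnt3, the fast troponin T, was at 1546 and 1428 CPM, a ratio of −0.11 (−0.26 to 0.03). Of 14 giant sarcomere and M-band genes, 0 were past 2-fold in either direction, though 13 were below 0, with a median of −0.19 beside −0.13 over all genes. Ttn, titin, was at 47615 and 35210 CPM. Of 14 genes of excitation-contraction coupling, 0 were past 2-fold, with a median of 0.08.

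Most metabolic genes had ratios below 0 in cKO type IIa nuclei, where 5.92% of all genes were at least 2-fold lower and the median of all genes was −0.13. Of 21 TCA cycle and respiratory chain genes, 20 had a ratio below 0, with a median of −0.35, and 3 were at least 2-fold lower (Fh1, Ndufa4 and Cycs). With at least 50 UMIs required, 0 of 17 were past 2-fold and the median was −0.23. Cycs, cytochrome c, was at 40.8 and 17.0 CPM, a ratio of −1.27 (−2.45 to −0.13). Of 16 fatty acid genes, 14 were below 0 and 4 at least 2-fold lower (Acadl, Ucp3, Pdk4 and Mlycd), with a median of −0.43. Acadl, the long-chain acyl-CoA dehydrogenase, was at 81.6 and 32.5 CPM, a ratio of −1.33 (−2.15 to −0.53). Of 12 glycogen genes, 10 were below 0, with a median of −0.49, and of 12 glycolysis genes 9 were, with a median of −0.27. Aldoa, the muscle aldolase, was the glycolysis gene past 2-fold, at 215 and 103 CPM.

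The regulators of oxidative genes did not pass 2-fold in this comparison. Of 14 PGC-1, ERR and PPAR genes, 0 were at least 2-fold higher or lower, 11 were below 0, and the median was −0.43. Ppargc1a was at 1124 and 621 CPM, a ratio of −0.86 (−1.05 to −0.67), beside 0.10 in Myh1- and −0.01 in Myh4-dominant nuclei. Perm1 was at 72.5 and 36.8 CPM, a ratio of −0.98 (−1.78 to −0.19), beside 0.18 and 0.35. Ppara was at 707 and 467 CPM, a ratio of −0.60 (−0.83 to −0.37), beside −0.06 and 0.91. These 3 genes thus had lower levels in cKO in type IIa nuclei and no such lower level in the other fast classes, a difference that was not tested. Esrra was at 141 and 165 CPM, a ratio of 0.24 (−0.22 to 0.70).

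The list of the p53 family and its targets was among the few with higher levels. Of 10 compared, 5 were at least 2-fold higher in cKO (Trp63, Mdm2, Btg2, Trp53inp1 and Eda2r) and 0 lower, with a median of 0.80. Over all genes 4.06% were at least 2-fold higher. With at least 50 UMIs required, 2 of 3 were (Trp63 and Eda2r), beside 1.66% of all genes. Trp63, the p53 relative p63, was at 199 and 526 CPM, a ratio of 1.40 (1.06 to 1.75), beside 279 and 364 CPM in non-fibre nuclei. Eda2r, a receptor of the tumour necrosis factor family and a p53 target, was at 4.53 CPM (2 UMIs) and 69.3 CPM (49 UMIs), a ratio of 3.93 (2.00 to 7.02). Its cKO level was close to the 73.6 CPM of non-fibre nuclei. Mdm2, the ubiquitin ligase that degrades p53, was at 20.4 and 49.5 CPM, a ratio of 1.28 (0.19 to 2.52), with 65.0 CPM in non-fibre nuclei of cKO. With nuclei assigned after thinning to 500 UMIs, the Mdm2 ratio was −0.06. For Eda2r and Mdm2 the cKO level in type IIa nuclei was thus at or below that outside the fibres. Trp53inp1, a p53-induced nuclear protein, was at 11.3 and 38.2 CPM, and Btg2, an antiproliferative gene, at 9.07 and 33.9 CPM.

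Of 6 immediate early genes compared, 3 were at least 2-fold higher in cKO (Atf3, Fos and Nr4a2) and all 6 had a ratio above 0, with a median of 0.98. Over all genes 4.06% were at least 2-fold higher. With at least 50 UMIs required, 1 of 3 was (Atf3). Atf3, a stress-induced transcription factor, was at 52.1 and 119 CPM, a ratio of 1.19 (0.51 to 1.92), and non-fibre nuclei held 53 and 121 CPM. In cKO these were 28 UMIs in 3 of 92 non-fibre nuclei (3.26%, 0.678 to 9.23) and 84 UMIs in 39 of 335 type IIa nuclei (11.6%, 8.41 to 15.6) at own depth, so the pooled non-fibre level rested on 3 nuclei. Atf3 was also higher in cKO in the other fast classes. It had 29 and 95 UMIs in Myh1-dominant and 57 and 139 UMIs in Myh4-dominant nuclei. Fos was at 9.07 and 25.5 CPM and Nr4a2, an orphan nuclear receptor, at 2.27 CPM (1 UMI) and 35.4 CPM (25 UMIs). Non-fibre nuclei of cKO held 21.7 CPM of Fos and 0 UMIs of Nr4a2.

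Atrophy and glucocorticoid-responsive genes were read beside the 5.92% of all genes that were at least 2-fold lower. Of 12 atrophy ligases and Foxo factors, 2 were at least 2-fold lower (Fbxo32 and Foxo1) and 1 higher (Fbxo30), and 9 of the 12 had a ratio below 0, with a median of −0.32 beside −0.13 over all genes. Fbxo32, the ubiquitin ligase atrogin-1, was at 777 and 380 CPM, a ratio of −1.03 (−1.27 to −0.80). Foxo1, the factor that induces it, was at 571 and 245 CPM, a ratio of −1.22 (−1.51 to −0.94). Trim63, the ligase MuRF1, was at 1308 and 694 CPM, a ratio of −0.91 (−1.09 to −0.74). Ratios of these 3 genes were also below 0 in Myh1- and Myh4-dominant nuclei, between −1.62 and −0.42. In non-fibre nuclei Fbxo32 was at 706 and 264 CPM, Foxo1 at 523 and 264 CPM and Trim63 at 818 and 269 CPM. Of 8 glucocorticoid-responsive genes, 2 were at least 2-fold lower (Fkbp5 and Sgk1) and all 8 were below 0, with a median of −0.59.

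Among genes of the nerve-muscle synapse, 7 were compared and 1 passed 2-fold in each direction, beside 4.06% of all genes higher and 5.92% lower. With at least 50 UMIs required, 0 of 2 passed it. Runx1, a transcription factor induced by denervation, was at 13.6 CPM (6 UMIs) and 41.0 CPM (29 UMIs), a ratio of 1.59 (0.30 to 3.15). Dok7, the activator of the receptor kinase MuSK, was at 54.4 and 21.2 CPM, a ratio of −1.36 (−2.39 to −0.37), and Musk itself at 258 and 157 CPM, a ratio of −0.72 (−1.11 to −0.33). Runx1 in cKO did not exceed the 47.6 CPM of non-fibre nuclei.

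Nuclear envelope genes and transcription factors completed the lists. Of 11 nuclear envelope and lamina genes, 2 were at least 2-fold lower (Sun2 and Lemd2) and 0 higher, with a median of −0.37. Over all genes 5.92% were at least 2-fold lower. With at least 50 UMIs required, 1 of 7 was (Sun2). Sun2, an inner nuclear membrane part of the LINC complex, was at 79.3 and 32.5 CPM, a ratio of −1.29 (−2.11 to −0.49), beside 0.17 in Myh1- and −0.35 in Myh4-dominant nuclei. Of 18 fibre type transcription factors and calcineurin genes, 3 were lower, among them Eya4 and Tead4, with a median of −0.23. Eya4, a transcriptional co-activator and phosphatase of fast fibres, was at 245 and 120 CPM, a ratio of −1.03 (−1.45 to −0.60). Of 7 Mef2 factors and class IIa HDACs, 11 circadian clock genes and 4 nuclear noncoding RNAs, 0 were past 2-fold, with medians of 0.04, −0.24 and −0.14. Of 6 polyamine genes, 1 was higher (Oaz2) and 2 lower (Smox and Amd1), with a median of −0.31. Of 14 insulin and IGF genes, 3 were lower (Mtor, Tbc1d1 and Igfbp5), with a median of −0.16, and of 11 dystrophin complex genes 1 (Nos1), with a median of −0.10.

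Variation among type IIa nuclei was read as the share with at least 1 UMI of a gene after thinning to 500 UMIs. Nckap5 was seen in 2 of 175 nuclei in Ctrl (1.14%, 0.139 to 4.07) and 91 of 335 in cKO (27.2%, 22.5 to 32.3), with 10.9% and 17.4% in non-fibre nuclei. The intervals in cKO overlap, since that of non-fibre nuclei was 10.3 to 26.7. At their own depth the shares were 8% and 49.6% (44.1 to 55.0) in type IIa nuclei and 29.0% and 44.6% (34.2 to 55.3) in non-fibre nuclei. Trp63 was seen in 5.14% (2.38 to 9.54) and 16.1% (12.3 to 20.5), with 7.25% and 3.26% (0.678 to 9.23) in non-fibre nuclei. At own depth Trp63 was seen in 23.4% and 31.9% (27.0 to 37.2) of type IIa nuclei and in 29.6% and 25.0% (16.6 to 35.1) of non-fibre nuclei. In cKO the intervals of type IIa and non-fibre nuclei of these 2 genes were thus apart only for Trp63 after thinning. Atf3 was seen in 1.71% and 5.37% (3.22 to 8.36), with 0.906% in non-fibre nuclei of Ctrl and 0 of 92 in cKO, which allows a share of up to 3.26% by a floor of 3 nuclei (3.93% by the exact binomial interval). In Myh1-dominant nuclei, thinned alike, Atf3 was seen in 0.923% and 5.07% and Trp63 in 15.1% and 29.0%. Myh4-dominant nuclei had 0.377% and 1.41% for Atf3 and 18.5% and 20.5% for Trp63. Myh7-dominant nuclei of cKO had 5.32% and 17.9%, so neither gene was particular to type IIa nuclei.

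Trim63, Fbxo32, Mylk4 and Agbl1 were seen in a smaller share of type IIa nuclei in cKO. Trim63 was seen in 42.9% (35.4 to 50.5) in Ctrl and 28.1% (23.3 to 33.2) in cKO after thinning, with 21.1% and 5.43% in non-fibre nuclei. Fbxo32 was seen in 26.9% (20.4 to 34.1) and 21.2% (16.9 to 26.0), intervals that overlap, with 16.3% and 9.78% in non-fibre nuclei. Mylk4 was seen in 16.6% and 5.37%, with 26.3% (21.6 to 31.4) and 9.78% (4.57 to 17.8) in non-fibre nuclei, so no expression is read from these shares. Agbl1 was seen in 90.3% (84.9 to 94.2) and 73.1% (68.0 to 77.8), with 26.3% and 18.5% in non-fibre nuclei. Col22a1, a marker of nuclei at the tendon end of a fibre, was seen in 0.571% and 0.896%, with 0.604% in non-fibre nuclei of Ctrl and 0 of 92 in cKO. Musk, a marker of nuclei under the nerve ending that is also made elsewhere in a fibre at low levels, was seen in 11.4% (7.12 to 17.1) and 7.76% (5.13 to 11.2), and neither gene had intervals apart between the libraries. Non-fibre nuclei had Musk in 4.83% (2.79 to 7.73) and 3.26% (0.678 to 9.23), intervals that overlap those of type IIa nuclei. At each nucleus's own depth Trim63, Fbxo32 and Mylk4 were seen in 81.7%, 73.7% and 45.1% in Ctrl and in 55.8%, 43.6% and 14.9% in cKO.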

How the data were processed

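The Ctrl and cKO snRNA-seq libraries of mouse GP muscle were analysed. The authors made the deposited matrices, which hold raw UMI counts for 27998 genes, with Cell Ranger 3.1.0 on mm10, per the submitters' processing notes. The labels and the study's methods name different releases of the kit, so the chemistry is unsettled, and the handling of intronic reads is not given in the sources used here. The deposited counts comprised 3863 barcodes and 10410316 UMIs in Ctrl and 3994 barcodes and 8446070 UMIs in cKO. Barcodes with under 500 UMIs or over 10% mitochondrial UMIs were removed (30 and 86).

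Nuclei were assigned by the myosin rule on raw UMIs, and the UMIs of each class in each library were added up and scaled to CPM. Intervals were exact Poisson for CPM, exact conditional for ratios, and exact binomial (Clopper-Pearson) for shares. They cover counting error only, and the ratio interval was tested on simulated data. A ratio against 0 UMIs used a floor of 3 UMIs per library. Doublets were kept in the main values, and as an alternative the 8% of nuclei with the highest Scrublet score were left out, since the automatic threshold of Scrublet marks none here. Thinning drew 500 or 1000 UMIs per nucleus with seed 1. Symbols that stood for more than 1 gene identifier (56) were kept as separate entries.

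Named genes were the markers and Plpp7. To these were added the 12 genes highest and the 12 lowest against Myh1- and Myh4-dominant nuclei by the weakest of 4 ratios, among genes with at least 30 UMIs per library. The 10 highest and 10 lowest against Myh7-dominant nuclei in cKO and the 15 highest and 15 lowest in cKO over Ctrl, by the interval bound nearest to no difference, were added as well. The nuclei, markers and lists were chosen with earlier results of these data known. Alternatives changed the myosin minimum, the dominance, depth, UMI minimum, non-fibre limit, doublets and scaling. Promoter windows came from RefSeq (GRCm38.p6), where 56 of 73 named genes and markers had an entry. Gene coordinates came from GENCODE M21 (GRCm38), which held 27645 of the identifiers and lacked 353. Python 3.11.15 with numpy 2.4.6, scipy 1.17.1, pandas 2.3.3, scanpy 1.11.5, scikit-image 0.26.0 and matplotlib 3.10.9 was used. Results of a few genes that met these rules are not reported here.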

Additional observations from a re-analysis of the deposited data

Results flagged for a closer look

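Some genes differed between cKO and Ctrl in opposite directions in type IIa nuclei and in another class, with both log2 ratios at least 0.5 from 0 and both counting intervals on 1 side of it. With 1 library per genotype the difference between classes was not tested for any of them. Against Myh1-dominant nuclei these were Runx1, at 1.59 (0.30 to 3.15) in type IIa nuclei and −0.72 in Myh1-dominant nuclei, and Adamts20, a matrix protease, at −0.84 (−1.66 to −0.02) and 0.77. With a dominance of 80% required, the Adamts20 ratio in type IIa nuclei was 1.95, so its direction turned. Against Myh4-dominant nuclei, Runx1 was at 1.59 and −0.60, and Trp53inp1 at 1.75 (0.36 to 3.49) and −0.64. In the other direction stood Bdh1 at −0.77 (−1.28 to −0.25) and 1.84, Ppara at −0.60 (−0.83 to −0.37) and 0.91, Homer2 at −0.71 (−1.12 to −0.30) and 0.60, and Gm5532 at −1.14 (−1.81 to −0.48) and 1.29. Bdh1, Ppara, Homer2 and Gm5532 were all higher in type IIa than in Myh4-dominant nuclei in both libraries, and in cKO the distance was smaller. Against Myh7-dominant nuclei, 3 slow genes were higher in cKO type IIa nuclei and lower in cKO slow nuclei, namely Tnnc1 at 4.36 and −0.97, Myl2 at 1.27 and −0.92 and Tpm3 at 1.90 and −0.70. Only 20 Myh7-dominant nuclei stood behind the Ctrl values.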

How the results depend on the processing

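The difference in the share of Myh2-dominant nuclei, cKO minus Ctrl, had a value above 0 under every alternative tried. It moved with 4 of 7 among all nuclei and with 3 among nuclei with a dominant myosin. Among all nuclei it was 4.01 points, and 2.49 with at least 5 myosin UMIs, 2.13 with a dominance of 80%, 1.07 after thinning to 500 UMIs and 2.67 after thinning to 1000 UMIs. Among nuclei with a dominant myosin it was 5.87 points, and 4.15, 0.766 and 2.95 with the last 3 settings. The interval of the 0.766 points was −2.51 to 3.91, so this difference was not apart from 0. Counts past 2-fold followed the UMI minimum, and with minima of 50 and 10 UMIs they were 46 and 482 higher and 85 and 643 lower in cKO over Ctrl, 38 and 130 higher and 34 and 137 lower against Myh1-dominant nuclei, and 102 and 517 higher and 107 and 623 lower against Myh7-dominant nuclei in cKO. Against Myh4-dominant nuclei the higher count was 244 with 50 UMIs. Taken from the median ratio, a count chosen after seeing the data, no count moved by over 1.5 times. Of 2779 gene ratios under alternatives, 2478 stayed within their interval, 296 moved and 5 reversed. Of these, 115 of 304 moved and 4 reversed with nuclei assigned after thinning to 500 UMIs, 102 of 300 moved and 1 reversed with a dominance of 80%, and each other setting moved 0 to 33. The reversed ones were cKO over Ctrl for Adamts20 (1.95, dominance of 80%) and, after thinning to 500 UMIs, Mdm2 (−0.06) and Ugp2 (0.00), and Myh2- over Myh1-dominant ratios in cKO for Smox (2.47) and Ugp2 (0.01). The causes were not tested. Of 176 list counts, 155 stayed and 21 moved when at least 50 UMIs were required. No paired analysis was possible because each genotype has 1 library. Depth limits genes under about 20 UMIs, whose intervals span several-fold.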
